A study of Homo sapiens with 10 samples.

Results

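Neural progenitors and mesoderm were made from one embryonic stem cell line with opposite handling of one signal: BMP4 was added for the mesoderm (MESO), and the BMP receptors were blocked for the neural progenitors (NPC). A gene's change against undifferentiated cells (hESC) was taken in the deposited table of each derivative, and the change in NPC was subtracted from that in MESO. Genes that rose in one derivative and fell in the other are called mirrored here, and genes that moved the same way in both are called shared. Members were the symbols on chromosomes 1 to 22 and X found in both tables, at 1 FPKM or more in any of the 4 columns. They numbered 13958 of 21907 symbols in both tables, and 13942 entered the counts, because 16 members were set apart for a level that did not match its deposited statistic or was written with more digits than the others, in any of the 4 tables of the series (for NANOG, PSAT1, MIR4674 and SNORD116-25, only in tables of other derivatives). ZNF454 and HOXD9 lay just inside the minimum, with highest levels of 1.00039 and 1.00076 FPKM. PDZK1P1 and DPY19L2P1 lay just outside it, with 0.999468 and 0.997638 FPKM.

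All cells came from WA09, an established human embryonic stem cell line, so 1 line stands for each state, and polyadenylated RNA of 2 libraries per cell type was sequenced. On matrigel in DMEM/F-12, hESC were kept for 4 days after seeding at 50000 cells per square centimetre, with FGF (8 ng/mL), IGF-I (200 ng/mL), activin A (10 ng/mL) and heregulin (10 ng/mL). MESO, labelled splanchnic mesoderm, had the seeding, the 4 days and the 4 factors of hESC and in addition Wnt-3a (25 ng/mL) and BMP-4 (100 ng/mL). NPC were seeded at 90000 cells per square centimetre and kept for 6 days with IGF-I and heregulin at the hESC doses, without FGF or activin A, with LDN (500 nM), which inhibits BMP type I receptors, and with SB431542, which inhibits the activin and NODAL receptors. IGF-I and heregulin were thus common to these 3 groups. Values of 2 other derivatives are given for the marker genes. Definitive endoderm (DE) was seeded like hESC and kept for 4 days with FGF (8 ng/mL) and activin A (100 ng/mL), without IGF-I or heregulin, and with Wnt-3a (25 ng/mL) on the first day alone. Pre-neural crest cells (NCSC) were seeded like NPC and kept for 6 days with FGF (8 ng/mL), IGF-I, heregulin, SB431542 and BIO, an inhibitor of GSK3, without activin A or LDN. BMP-4, LDN, Wnt-3a, FGF, activin A, SB431542, the number of days and the seeding density differ together between MESO and NPC, and their parts cannot be told apart.

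Each table gives 1 FPKM value (fragments per kilobase of transcript, scaled to library size) per cell type, because the authors had combined the libraries. No spread between libraries can be given, the labels do not say whether the libraries were separate cultures, and read depth is unknown. A change is the log2(FPKM + 1) of the derivative less that of hESC, a scale on which low genes move less than their ratio. Each was centred on the median of its table, 0.06 in MESO and -0.25 in NPC. Rose and fell refer to the authors' q-value below 0.05 in the table named, and the difference between MESO and NPC has no test. Over all members the median difference was 0.05, with quartiles at -0.53 and 0.67. The hESC columns of both tables were close: over the 12325 members at 1 FPKM or more in both, the NPC table was 0.19 higher on the log2 scale in the median, and 98.2% of genes lay within 0.5 of that. In cultures of this kind, fewer cells of a type and less RNA per cell cannot be told apart.

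Bone morphogenetic proteins are secreted ligands that bind paired type I and type II receptor kinases on the cell surface. The receptors phosphorylate SMAD1, SMAD5 and SMAD9, which enter the nucleus with SMAD4 and switch on ID genes, MSX genes and inhibitors of the pathway itself, such as SMAD6, SMAD7 and BAMBI. In the early embryo, BMP signalling directs cells toward extra-embryonic ectoderm, ventral and lateral mesoderm or epidermis, and its inhibition leaves ectoderm to become neural tissue.

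Promoters of 3 BMP-responsive genes and of SOX2 are shown so that their sequence stands beside their response. Each is the 250 bases before the RefSeq start site in GRCh38.p14, while all other coordinates are hg19, the build of the tables. Capitals mark GGCGCC, a sequence bound by SMAD1 and SMAD5, and CAGAC or its reverse complement GTCTG, the general SMAD element; both strands were searched. BAMBI, chr10:28677271-28677520 (plus strand), ID1, chr20:31605039-31605288 (plus strand), MSX2, chr5:174724332-174724581 (plus strand), and SOX2, chr3:181711675-181711924 (plus strand), read as follows.
BAMBI: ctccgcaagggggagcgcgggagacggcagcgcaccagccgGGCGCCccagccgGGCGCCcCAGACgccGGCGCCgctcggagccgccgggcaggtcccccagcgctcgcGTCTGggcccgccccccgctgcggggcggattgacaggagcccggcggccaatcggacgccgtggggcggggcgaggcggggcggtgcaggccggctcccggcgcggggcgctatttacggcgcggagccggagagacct
ID1: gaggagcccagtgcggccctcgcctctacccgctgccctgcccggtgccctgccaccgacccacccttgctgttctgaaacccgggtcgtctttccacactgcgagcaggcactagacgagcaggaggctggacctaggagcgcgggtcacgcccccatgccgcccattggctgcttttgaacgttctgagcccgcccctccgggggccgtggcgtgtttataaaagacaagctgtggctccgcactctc
MSX2: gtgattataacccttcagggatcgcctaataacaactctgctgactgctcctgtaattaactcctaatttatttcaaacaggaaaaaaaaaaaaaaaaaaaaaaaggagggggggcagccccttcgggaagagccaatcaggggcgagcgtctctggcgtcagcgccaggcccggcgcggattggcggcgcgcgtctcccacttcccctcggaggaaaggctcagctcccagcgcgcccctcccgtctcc
SOX2: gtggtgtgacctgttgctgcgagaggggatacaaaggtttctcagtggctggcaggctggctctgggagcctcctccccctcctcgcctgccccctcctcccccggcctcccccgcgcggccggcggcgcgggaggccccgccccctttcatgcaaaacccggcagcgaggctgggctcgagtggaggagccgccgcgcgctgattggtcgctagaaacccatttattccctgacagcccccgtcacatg
The BAMBI window held 3 copies of GGCGCC and 2 of CAGAC, whereas those of ID1, MSX2 and SOX2 held 0 of either. Of all 35116 windows of this length, 16.4% held GGCGCC and 38.0% held CAGAC on either strand. Of the 238 genes that rose in MESO and fell in NPC (1.71% of those counted), 168 matched the promoter table, with 283 windows, of which 25.1% held GGCGCC and 38.9% CAGAC. The share with GGCGCC was 23.4% for the genes mirrored the other way, 22.5% for those that rose in both and 24.3% for those that fell in both (0.466%, 2.64% and 3.41% of those counted). CAGAC was found in 22.1% of the 77 windows of genes that fell in MESO and rose in NPC. For a list of BMP targets, 20.8% of 24 windows held GGCGCC and 41.7% CAGAC. The share over all windows also takes in genes that are not members. A match describes these letters only.

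The contrast is marked by 4 genes. ID1 (chromosome 20, 30192876 to 30195660), an inhibitor of basic helix-loop-helix factors and a direct BMP target, was at 250.1 FPKM in hESC and 442 in MESO, a step with a q of 0.151 in the authors' deposited table, which did not pass. In the NPC table it fell from 265 to 15.2 FPKM. GATA3 (chromosome 10, 8096551 to 8117164), a zinc finger factor of trophoblast and surface ectoderm, rose from 0.383 to 114 FPKM in MESO. In NPC it was at 0.0545 FPKM against 0.416 in hESC, a step with a q of 0.350 in the authors' deposited table, which did not pass. So the contrast in ID1 came mostly from NPC and that in GATA3 from MESO. SOX2 (chromosome 3, 180774467 to 181460229, a locus that also takes in the overlapping transcript SOX2-OT), a factor of pluripotent and neural cells, fell from 231 to 1.97 FPKM in MESO and rose from 259.6 to 418 in NPC. PAX6 (chromosome 11, 31531296 to 31908587), a factor of the early neural plate and eye, was at 0.275 FPKM in hESC and 0.237 in MESO and rose from 0.349 to 38.05 in NPC. The centred differences were 4.55 for ID1, 6.50 for GATA3, -7.28 for SOX2 and -5.20 for PAX6, positive values being higher in MESO. In NCSC, without LDN, ID1 fell as well, from 249.5 to 13.1 FPKM, SOX2 was at 167 FPKM and PAX6 at 0.348. In DE, GATA3 was at 6.92 FPKM and ID1 at 186, neither past the test.

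By the authors' q, 1282 of 13942 genes rose in MESO (9.2%) and 749 fell (5.37%). In NPC 1654 rose (11.9%) and 3518 fell (25.2%). Mirrored genes that rose in MESO and fell in NPC numbered 238 (1.71%), and those that fell in MESO and rose in NPC numbered 65 (0.466%), together 303 (2.17%). Shared genes were more numerous, with 368 that rose in both (2.64%) and 475 that fell in both (3.41%). These counts come from comparisons that share the hESC libraries. Called in MESO alone were 885 genes (6.35%), in NPC alone 4026 (28.9%) and in neither 7885 (56.6%). The authors' tests were not equally sensitive. In the median gene, the log2 ratio per unit of their score, a signed test statistic, was 0.61 in MESO and 0.43 in NPC. A given ratio thus tended to reach a larger score in NPC, which also bears on the counts of the lists below. How much of the excess of calls in NPC comes from this was not tested. Regardless of the calls, 2250 genes (16.1%) were at least 1 higher in MESO on the log2 scale and 1896 (13.6%) at least 1 higher in NPC. Without centring these counts were 3379 and 1209.

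**Figure D1:**
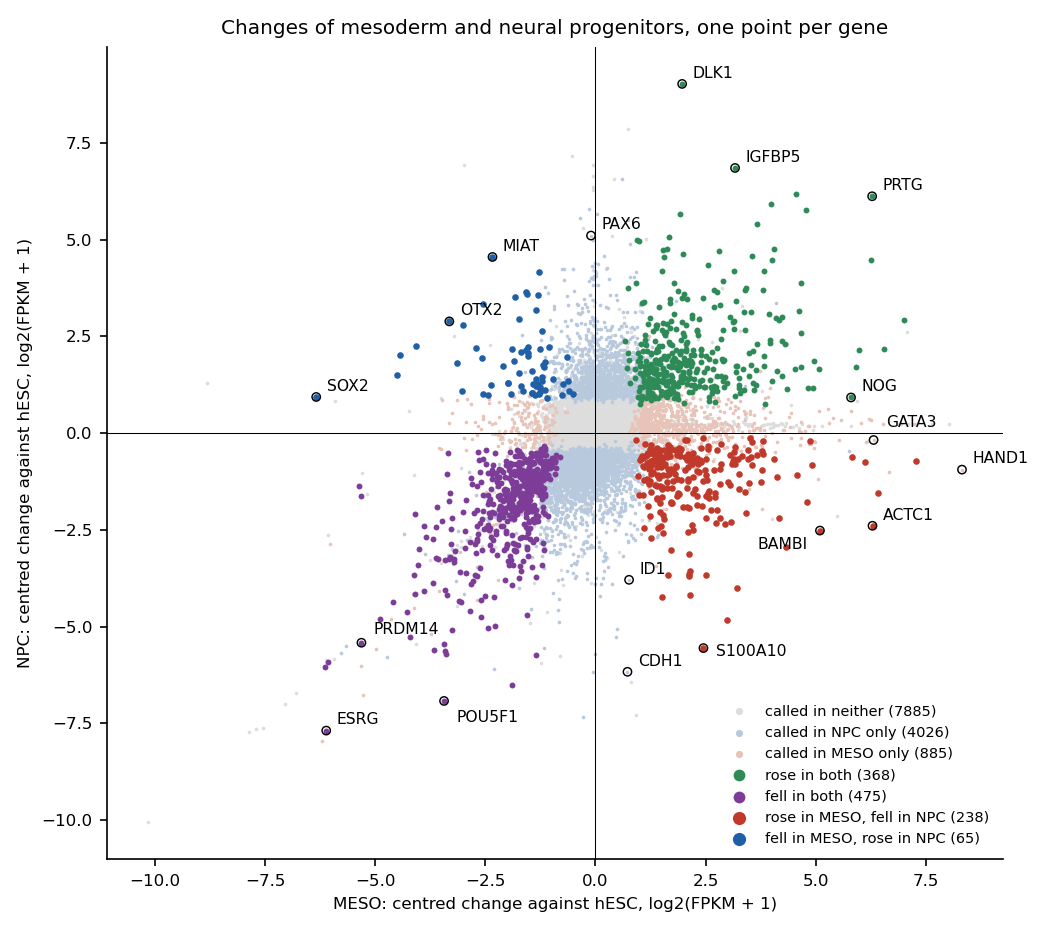
Centred change against hESC in MESO (horizontal) and in NPC (vertical), in log2(FPKM + 1), with 1 point per gene and colours for the calls in both tables. The 238 genes that rose in MESO and fell in NPC lie at the lower right with ACTC1, BAMBI and S100A10, and the 65 mirrored the other way at the upper left with SOX2, MIAT and OTX2.

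The 238 genes that rose in MESO and fell in NPC had a median of 5.33 FPKM in hESC, against 8.84 over all genes counted, and 55 of the 238 were below 2 FPKM. A called fall needs some level in hESC, so expression there follows in part from the definition of mirrored genes. The median of the 238 was 30.3 FPKM in MESO and 1.12 FPKM in NPC, where 115 were under 1 FPKM. Among them ACTC1 had the largest difference: ACTC1 (chromosome 15, 35080296 to 35088024), the cardiac form of alpha actin, rose from 13.2 to 1159 FPKM in MESO and fell from 15.4 to 1.63 in NPC, a difference of 8.69. S100A10 and S100A11, calcium-binding partners of annexins, lie side by side on chromosome 1. S100A10 went from 94.5 to 543 FPKM in MESO and from 102 to 0.858 in NPC. S100A11 went from 121 to 1012 and from 135 to 3.02. Both were abundant in hESC and in MESO and low in NPC. EPAS1, the hypoxia-inducible factor HIF-2alpha, was low in hESC and shows the other pattern, with 316 FPKM in MESO against 0.964 in hESC, and 0.0550 FPKM in NPC against 1.05. HAPLN1, a link protein of hyaluronan matrix, rose from 1.73 to 241 FPKM in MESO and fell from 2.65 to 0.0575 in NPC.

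BAMBI, a receptor-like protein without a kinase domain that dampens BMP and activin signals, rose from 13.3 to 509 FPKM and fell from 15.02 to 1.36. ANXA1, an annexin that binds membranes in the presence of calcium, rose from 13.9 to 310.1 FPKM and fell from 16.1 to 0.892. NTS, the precursor of neurotensin, rose from 22.5 to 228 FPKM and fell from 28.7 to 0.561. All of these 3 were moderately expressed in hESC, high in MESO and low in NPC. MSX2, a homeobox BMP target, differed by 6.89, TINAGL1, a matrix protein, by 6.60, SP6, a zinc finger factor, by 6.44, and CSRP1, a LIM protein of actin filaments, by 6.35. MSX2 and SP6 were near 1 FPKM in hESC, so their falls in NPC span little on this scale (-0.76 and -0.62).

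The 65 genes that fell in MESO and rose in NPC had a median of 4.84 FPKM in hESC, 0.719 in MESO and 23.8 in NPC. After SOX2 came MIAT, a long noncoding RNA, which fell from 7.62 to 0.772 FPKM in MESO and rose from 8.51 to 187 in NPC. CRABP1, a binding protein for retinoic acid, fell from 101 to 3.87 FPKM and rose from 112 to 385. SOX21, a repressor of the SOX B2 group, fell from 22.4 to 0.449 FPKM and rose from 25.4 to 105. OTX2, the homeobox factor of forebrain and midbrain, fell from 20.6 to 1.25 FPKM and rose from 23.8 to 153. Each of these 5 was expressed in hESC, fell in MESO and rose in NPC. For SOX2 the loss in MESO (-6.34) was far larger than the gain in NPC (0.93), while for MIAT the gain (4.55) was larger than the loss (-2.34). TTYH1, a membrane channel of neural cells, differed by -6.01, NELL2, a secreted neural glycoprotein, by -5.88, ZIC2, a zinc finger factor of the neural plate, by -5.81 and POU3F1, a POU factor of early neural cells, by -5.44. LFNG, a glycosyltransferase that modifies NOTCH, differed by -5.35 and SHISA2, which holds back FGF and WNT receptors, by -5.15.

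**Figure D2:**
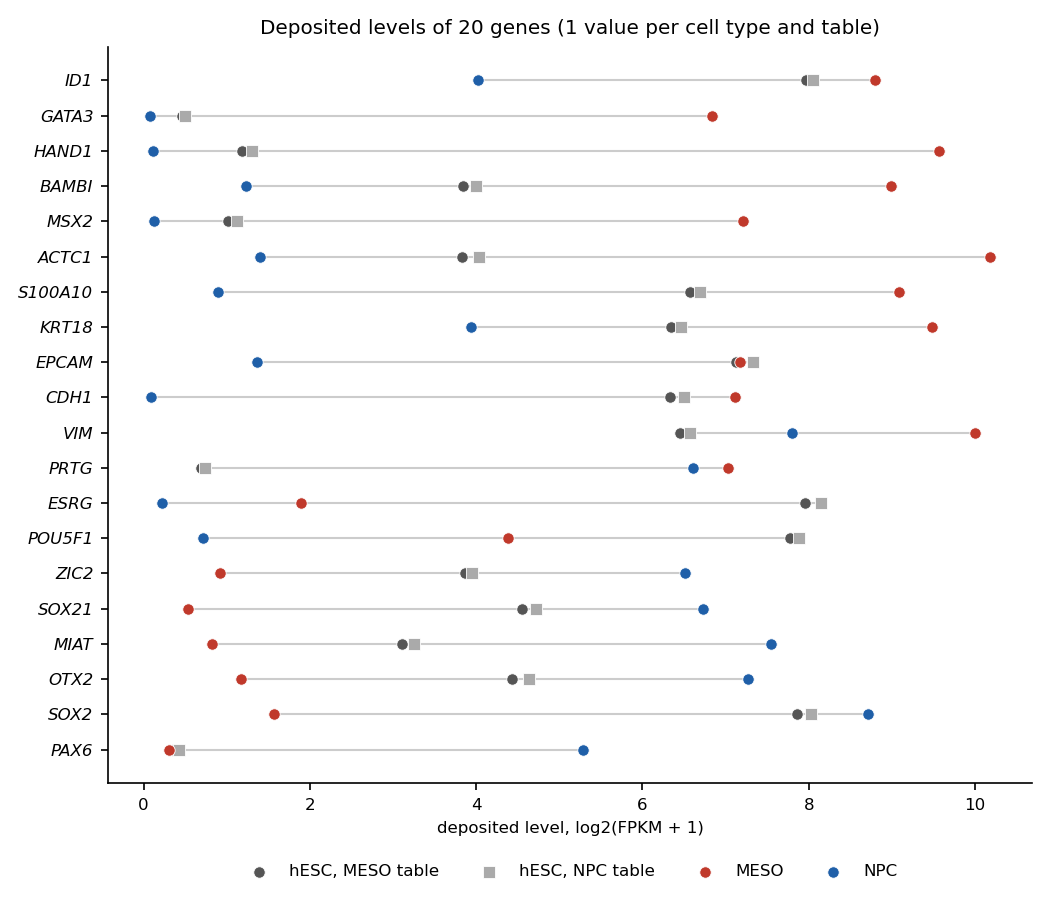
Deposited level in log2(FPKM + 1) of 20 genes in MESO, NPC and the hESC column of each table, with 1 value per cell type and table and no error. Grey symbols of the hESC columns lie close together, with MESO far to the right for HAND1, BAMBI and ACTC1 and far to the left for SOX2, OTX2 and ZIC2.

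Within the BMP pathway, the ligand BMP4 was mirrored toward MESO. Of 9 measured ligands, 5 rose and 1 fell in MESO (9.2% and 5.37% over all genes). In NPC 2 rose and 1 fell (11.9% and 25.2%). In hESC 4 were below 1 FPKM, so only their level in a derivative made them members. BMP4 itself, the ligand that was added as protein to MESO, rose from 14.1 to 109.7 FPKM there and fell from 15.9 to 4.72 in NPC. BMP2 rose in both, from 1.31 to 14.3 FPKM in MESO and from 1.47 to 5.51 in NPC. GDF6, a ligand of the eye and of joints, rose in MESO from 0.0944 to 11.3 FPKM, and BMP7 from 6.86 to 17.5. BMP8A, which fell in MESO from 1.33 to 0.159 FPKM, went the other way.

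Of 13 receptors, co-receptors and SMADs, 4 rose and 1 fell in MESO, and 2 rose and 1 fell in NPC. Over all genes counted, 11.9% rose and 25.2% fell in NPC. The median difference of the 13 was 0.41. The type II receptor BMPR2 rose in MESO from 8.71 to 26.3 FPKM and the type I receptor ACVR1 from 7.57 to 18.7. SMAD9, which is itself a BMP target, rose from 0.742 to 17.8 FPKM, and ACVRL1, a type I receptor of endothelium, from 0.240 to 6.17. SMAD1, SMAD4 and SMAD5, the signal carriers, passed in neither table, and their differences lay between -0.32 and -0.05. The type I receptor BMPR1A fell in NPC from 13.1 to 6.50 FPKM. RGMA, a co-receptor that raises the response to BMP ligands and also guides axons, was the mirrored member. It fell in MESO from 25.6 to 2.15 FPKM and rose in NPC from 27.7 to 83.1, and its relative RGMB rose in NPC from 10.8 to 19.9.

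Antagonists stood on both sides. Of 14 measured, 7 rose and 1 fell in MESO (9.2% and 5.37% over all genes). In NPC 4 rose and 5 fell (11.9% and 25.2%). Mirrored toward MESO were 3 (BAMBI, BMPER and CRIM1), and 1 was mirrored toward NPC (CHRDL1). NOG, the secreted antagonist noggin, rose from 0.184 to 67.9 FPKM in the cells that were given BMP4, and from 0.191 to 0.898 FPKM in NPC. BMPER rose from 0.542 to 21.4 FPKM in MESO. FST, which traps activin, rose from 9.13 to 54.2 FPKM in MESO and was at 14.5 against 10.6 in NPC, which did not pass. CHRDL1, a chordin-like antagonist, fell from 3.03 to 0.545 FPKM in MESO and rose from 3.60 to 10.8 in NPC. CER1, an antagonist of BMP and NODAL, fell in NPC from 19.1 to 0.0594 FPKM.

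Most targets of BMP signalling rose in MESO. Of 21 measured, 17 rose and 0 fell in MESO, and in NPC 4 rose and 5 fell; the 4 that did not pass in MESO were ID1, DLX5, TBX2 and KLF2. The median difference was 4.55 against 0.05 over all members, and 10 of the 21 had under 1 FPKM in hESC, so that a derivative brought them in. HAND1, a factor of heart and extra-embryonic mesoderm, had the largest difference, 9.27, with 758 FPKM in MESO against 1.27 in hESC, and 0.0827 FPKM in NPC against 1.47, where it did not pass. TBX3, a T-box factor, rose from 0.354 to 98.2 FPKM in MESO, and GATA2 from 1.60 to 89.1. The 5 that fell in NPC were ID1, BAMBI, MSX2, SMAD7 and TFAP2C. SMAD7, an inhibitory SMAD that closes the feedback loop, rose from 7.37 to 48.3 FPKM in MESO and fell from 8.21 to 0.710 in NPC. TFAP2C, a factor of trophoblast and surface ectoderm, rose from 16.4 to 56.3 FPKM and fell from 18.4 to 0.288. SMAD6, the other inhibitory SMAD, rose in MESO from 2.96 to 54.8 FPKM and was at 1.99 against 3.12 in NPC, which did not pass.

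The 4 ID genes, all short inhibitors of basic helix-loop-helix factors, did not move alike. ID2 rose in both derivatives, from 16.2 to 254 FPKM in MESO and from 18.7 to 65.3 in NPC under the BMP receptor inhibitor. ID4 also rose in both, from 7.24 to 36.4 FPKM and from 8.60 to 15.8. ID3 rose in MESO from 51.8 to 171 FPKM and stood at 54.9 against 56.4 in NPC. Only ID1, of the 4, fell in NPC, and it was the 1 that did not pass in MESO.

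**Figure D3:**
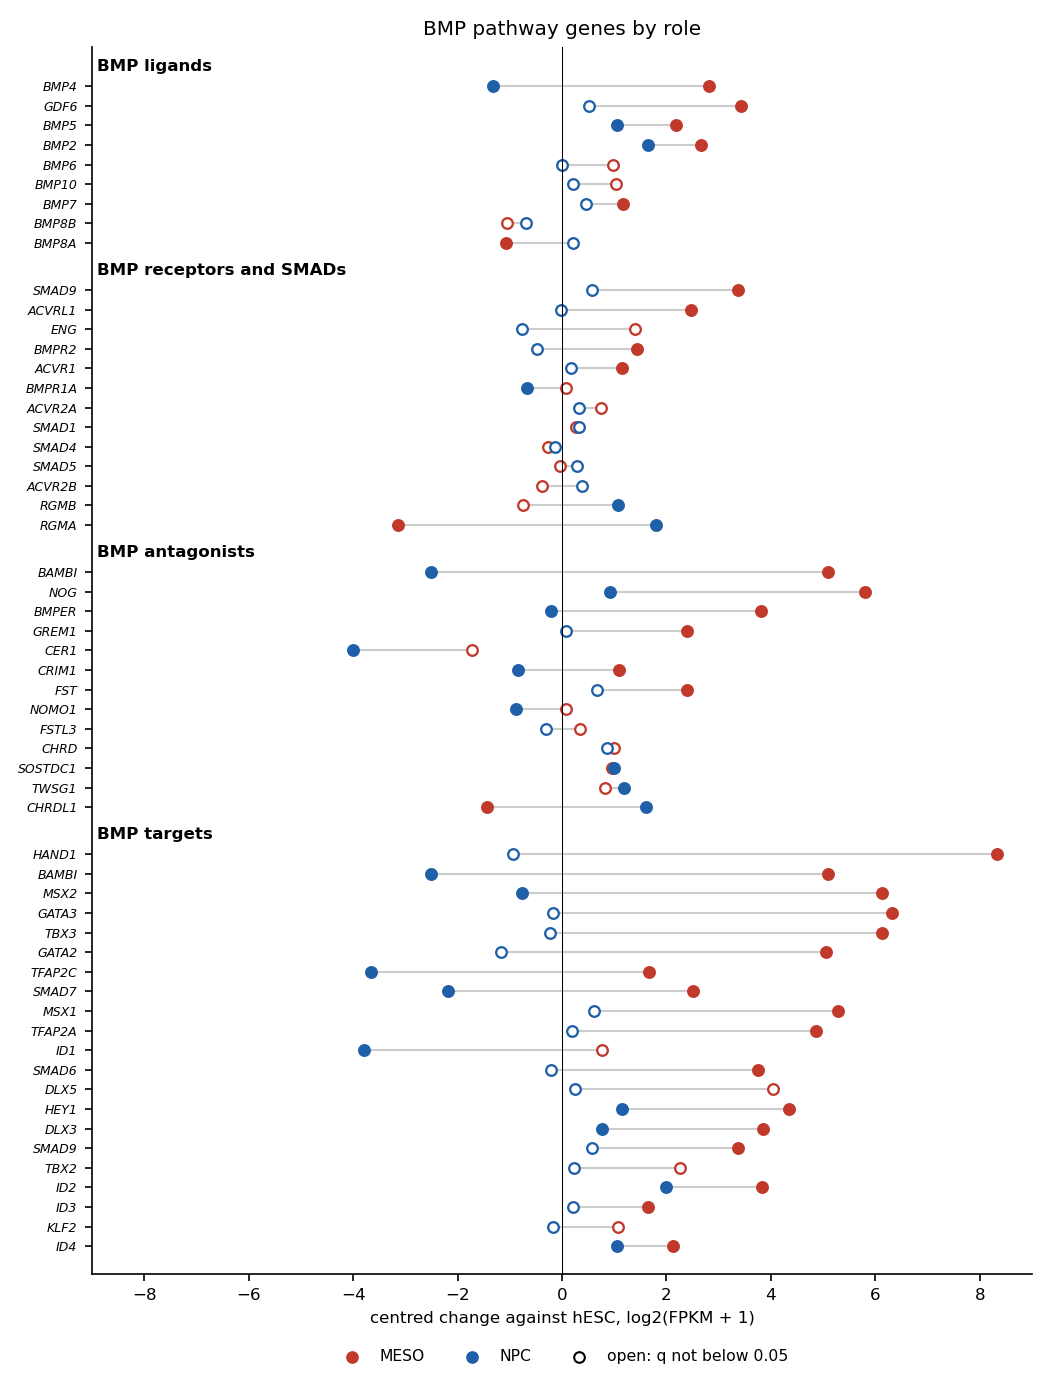
Centred change against hESC in log2(FPKM + 1) of BMP pathway genes grouped by role, in MESO (red) and NPC (blue), with open circles where the authors' q was not below 0.05 and 1 antagonist not drawn. Most targets lie far to the right in MESO, whereas SMAD1, SMAD4 and SMAD5 stay near 0 in both, and RGMA and CHRDL1 lie left of 0 in MESO and right of it in NPC.

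Wnt-3a was added to MESO and not to NPC. Of 18 measured WNT targets, 10 rose and 1 fell in MESO, and 3 rose and 9 fell in NPC, with a median difference of 1.57. DKK1, a secreted WNT antagonist, rose from 1.36 to 21.3 FPKM in MESO and fell from 1.61 to 0.266 in NPC. NOTUM, an enzyme that inactivates WNT ligands, rose from 2.39 to 27.4 FPKM and fell from 2.43 to 0.202. LEF1, a nuclear partner of beta-catenin, rose in both, from 0.315 to 24.8 FPKM in MESO and from 0.443 to 5.30 in NPC. AXIN2, a widely used reporter of the pathway, stood at 17.4 FPKM in MESO against 17.4 in hESC and fell in NPC from 19.8 to 6.45. FZD7, a WNT receptor, fell in both, and this fall was larger in MESO (-2.02) than in NPC (-0.71). BAMBI and SMAD7 are held by more than 1 of the pathway lists.

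Activin A was kept in MESO, and its receptors were inhibited in NPC. Of 15 NODAL and activin targets, 3 rose and 4 fell in MESO, and 0 rose and 9 fell in NPC. The 3 that rose in MESO were all mirrored, SMAD7 among them. NODAL fell in both derivatives, from 11.4 to 0.947 FPKM in MESO with activin A present, and from 12.97 to 0.611 in NPC. LEFTY1 and LEFTY2, secreted inhibitors of NODAL, fell in MESO from 19.6 to 0.816 and from 14.4 to 2.43 FPKM. In NPC they were listed at 0.0626 and 0.0186 FPKM, with q-values of 0.0795 and 0.0617 in the authors' deposited table, which did not pass. TDGF1, the NODAL co-receptor Cripto, was at 0.0117 FPKM in NPC against 297 in hESC and still missed the threshold (the authors' deposited table gives q = 0.350). SKIL, a feedback inhibitor of SMAD signalling, fell in NPC from 50.1 to 3.96 FPKM.

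FGF was given to MESO and not to NPC, and the 18 genes of FGF and ERK feedback had a median difference of 0.08, with members on both sides. In MESO 4 rose and 1 fell (9.2% and 5.37% over all genes), and in NPC 7 rose and 6 fell (11.9% and 25.2%). DUSP5, a phosphatase of nuclear ERK, rose from 4.48 to 33.97 FPKM in MESO and fell from 4.94 to 0.254 in NPC. SPRY4, a sprouty inhibitor, rose from 11.3 to 35.9 FPKM and fell from 12.6 to 0.901. DUSP6, the phosphatase of cytoplasmic ERK, rose in both, to 54.99 FPKM in MESO and 11.3 in NPC. FGF8, a ligand of the forebrain and midbrain organisers, rose in NPC from 2.79 to 48.4 FPKM and was at 1.25 in MESO. FGF2 fell in both, from 70.6 to 6.79 FPKM in MESO and from 86.6 to 15.02 in NPC. ETV4, an ETS factor downstream of FGF, fell in NPC from 36.4 to 1.99 FPKM. FOS and EGR1, immediate early genes, rose in NPC, to 68.2 and 98.1 FPKM.

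Factors of lateral and splanchnic mesoderm rose in MESO. Of 28 measured, 20 rose and 0 fell in MESO, and 3 rose and 3 fell in NPC, with a median difference of 3.25. As 20 of the 28 were below 1 FPKM in hESC in both tables and became members through a derivative, the minimum favoured rises over falls against hESC. Those that were also below 1 FPKM in NPC, GATA4 and ISL1 among them, became members through MESO alone. For them MESO was bound to be higher. GATA4, a zinc finger factor of heart and gut, rose from 0.549 to 49.3 FPKM in MESO and was at 0.0169 in NPC. KDR, the VEGF receptor of early mesoderm, was the clearest mirrored member, from 6.75 to 55.9 FPKM and from 7.63 to 0.594. ISL1, a LIM homeobox factor of the second heart field, rose from 0.246 to 32.2 FPKM in MESO and was listed at 0 in NPC. TBX20 rose to 23.2 FPKM, NKX2-5 to 15.04, and FOXF1, a forkhead factor that marks splanchnic mesoderm, to 7.26 from a level listed at 0. The 3 that rose in both derivatives were HEY1, PDGFRB and MEIS1. Factors of the primitive streak were low in MESO: T (brachyury) was at 3.09 FPKM in MESO against 0.579 in hESC, MESP1 at 1.32 against 0.220 and TBX6 at 2.05 against 3.13, none past the test. MIXL1 was at 2.24 FPKM against 2.51.

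Neural progenitor genes showed the opposite picture, with 24 of 30 measured rising and 1 falling in NPC, and 4 rising and 8 falling in MESO. Their median difference was -4.08, and 16 of the 30 were below 1 FPKM in hESC in both tables. SIX3, a factor of forebrain and eye, rose in NPC from 0.196 to 54.9 FPKM and was at 0.107 in MESO. HES5, a NOTCH target of neural stem cells, rose from 0.220 to 50.9 FPKM. RAX rose from 0.156 to 30.1 FPKM and SOX1 from 0.302 to 5.24. SIX3 and RAX are genes of the anterior neural plate, and none of the HOX genes measured here reached 1 FPKM in NPC. LHX2 and NR2F1 were at 28.97 and 15.1 FPKM in NPC and missed the threshold (the authors' deposited table gives q = 0.0566 and 0.115). The 6 mirrored members were SOX2, SOX21, OTX2, ZIC2, POU3F1 and ZIC5, all measurable in hESC, which a called fall in MESO requires. ZIC2 and ZIC5, neighbours on chromosome 13, fell in MESO from 13.5 to 0.885 and from 3.32 to 0.213 FPKM and rose in NPC from 14.5 to 90.3 and from 3.73 to 16.8. NES, an intermediate filament protein often used as a neural stem cell marker, did not separate the cells, at 124 FPKM in MESO and 139 in NPC, past the test in neither.

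Several genes of the neural list rose in both derivatives. CDH2, N-cadherin, rose from 13.99 to 70.8 FPKM in MESO and from 17.3 to 127 in NPC, and MEIS2, a homeobox cofactor, reached 11.1 and 11.2 FPKM. NCAM1, a cell adhesion molecule, reached 6.80 and 12.7. The differences of these 3 lay between -1.04 and -0.31.

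Epithelial junction genes mostly fell in NPC, and in MESO most did not pass. As a given ratio tended to reach a larger score in NPC, these calls are not on the same footing. Without regard to calls, their median centred change was 0.1 in MESO and -1.62 in NPC. Of 31 measured, 23 fell and 0 rose in NPC, while in MESO 8 rose and 1 fell, with a median difference of 2.55. All 31 were at 1 FPKM or more in hESC in at least 1 table, so the minimum did not set this direction. CDH1, E-cadherin, was at 79.2 FPKM in hESC and 137 in MESO (the authors' deposited table gives q = 0.267, which did not pass) and fell in NPC from 89.6 to 0.0631 FPKM. EPCAM, an epithelial adhesion molecule, was at 138 and 143 FPKM and fell in NPC from 159.7 to 1.58. Members of this list that rose in MESO and fell in NPC were CLDN4, OVOL1, GRHL2, PKP2, DSC2 and JUP. CLDN4, a tight junction protein, went from 10.1 to 75.7 FPKM in MESO and from 10.6 to 2.11 in NPC. GRHL2, a factor that maintains epithelial genes, went from 6.50 to 17.8 and from 7.32 to 0.0708. ESRP1, an epithelial splicing regulator, fell in both, more in NPC (-5.74) than in MESO (-1.35). TJP1, the scaffold ZO-1 of tight junctions, passed in neither table.

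Keratins, examined after their values were seen, rose in MESO. All 6 measured simple epithelial keratins rose in MESO, and 5 fell in NPC. KRT18 rose from 79.95 to 712 FPKM in MESO and fell from 87.4 to 14.3 in NPC, and its partner KRT8 went from 89.4 to 987 and from 96.1 to 27.5. KRT19 reached 1298 FPKM in MESO from 107, and was at 62.8 in NPC against 115. KRT7, KRT8, KRT18 and KRT80 lie in 2 neighbouring pairs on chromosome 12.

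Mesenchymal and matrix genes also rose in MESO, where 25 of 26 measured did so, so genes of both kinds rose in the same culture. In NPC 10 rose and 5 fell, and the median difference was 2.85, with 11 of the 26 below 1 FPKM in hESC. COL1A1, the main fibrillar collagen, rose from 92.3 to 549 FPKM in MESO and fell from 96.9 to 5.54 in NPC. FN1, fibronectin, rose from 27.3 to 731 FPKM in MESO and was at 21.7 against 32.4 in NPC. VIM, the mesenchymal filament vimentin, rose in both, from 86.7 to 1026 FPKM and from 93.8 to 223. The zinc finger repressors of E-cadherin split. SNAI2 rose in both but mostly in MESO, from 0.243 to 80.9 FPKM against 0.288 to 3.78 in NPC. ZEB1 rose mostly in NPC, from 0.0826 to 11.2 FPKM against 0.0651 to 0.852 in MESO, and ZEB2 rose in both alike, to 15.3 and 17.6. LUM, a matrix proteoglycan, was at 173 FPKM in MESO against 0.0721 in hESC and missed the threshold (the authors' deposited table gives q = 0.544), one of the large differences without a call.

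**Figure D4:**
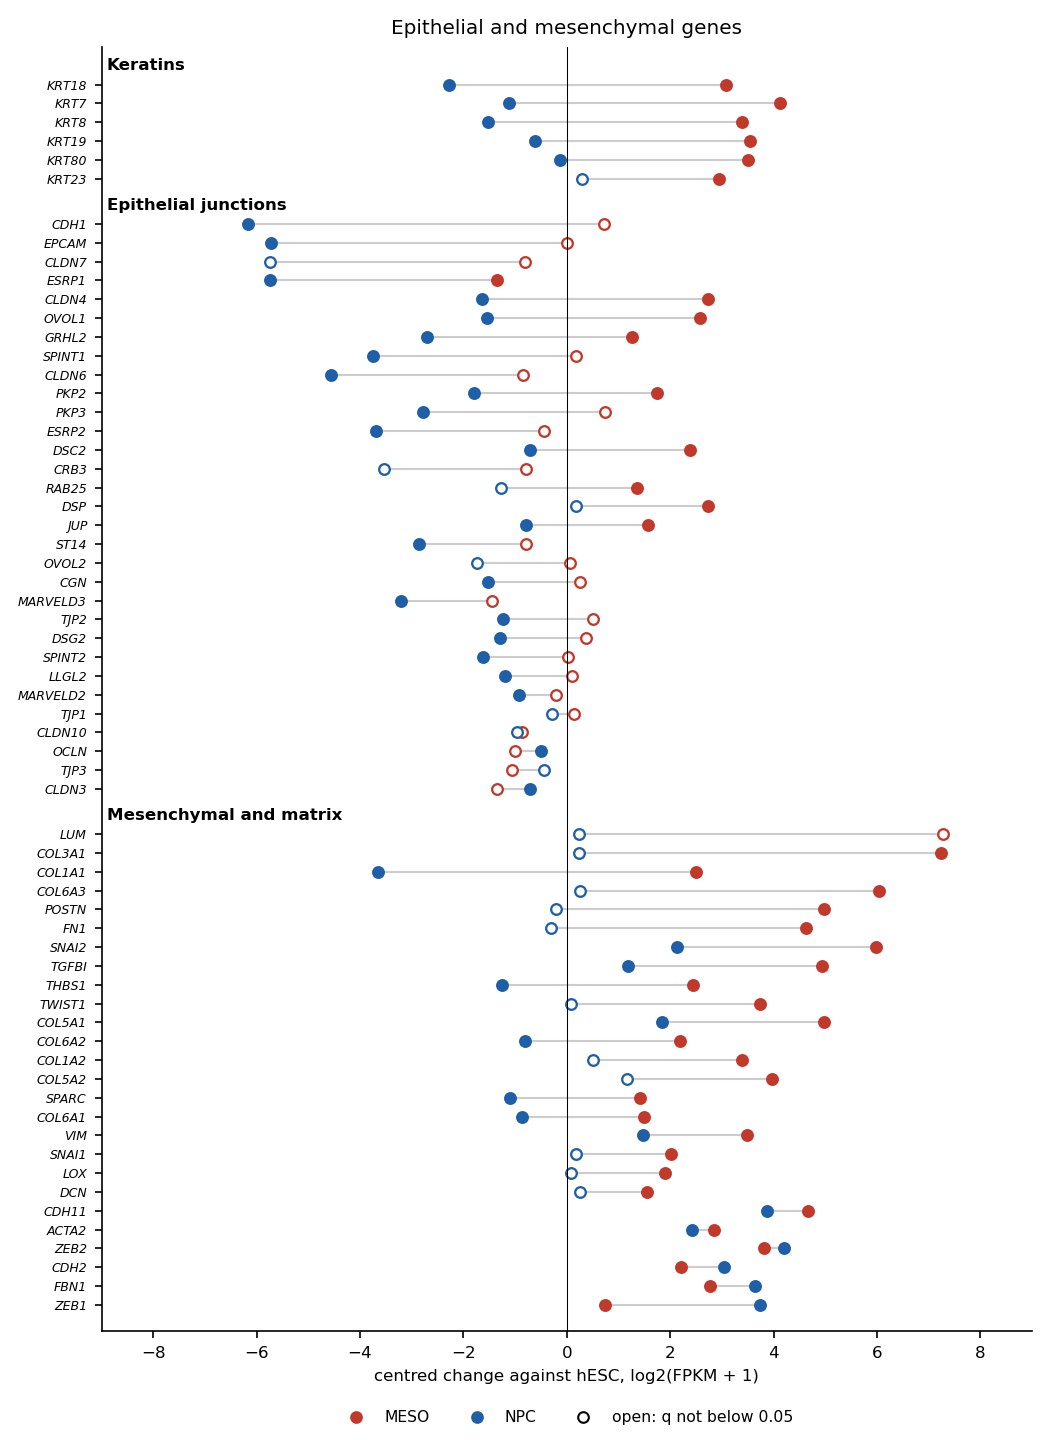
Centred change against hESC in log2(FPKM + 1) of keratins, epithelial junction genes and mesenchymal genes in MESO (red) and NPC (blue), with open circles where the authors' q was not below 0.05. Keratins and most mesenchymal genes lie to the right in MESO, and 23 of 31 junction genes fell in NPC, CDH1 the furthest.

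Markers of other cell types moved with the mesoderm genes. Of 22 measured trophoblast and amnion genes, 14 rose and 0 fell in MESO, and 1 rose and 7 fell in NPC, where 25.2% of all genes fell. The median difference was 4.73, and 12 of the 22 were below 1 FPKM in hESC. The summed level of the 22 was 4555 FPKM in MESO against 312 in hESC, and without the 4 keratins of the list it was 1507 against 33.7. In NPC it was 140.3 FPKM against 338, and 35.6 against 37.2 without the keratins. GABRP, a GABA receptor subunit of amnion and trophoblast, rose in MESO from 1.18 to 229.8 FPKM, and CGA, the hormone alpha subunit of placenta, from a level listed at 0 to 95.3. VTCN1, an immune checkpoint protein of amnion, rose from 0.0414 to 44.9 FPKM, and PGF, placental growth factor, from 2.63 to 113 while it fell in NPC from 2.70 to 0.752. ELF5, a defining factor of trophoblast stem cells, was at 0.0760 FPKM in MESO, and GCM1 and TP63 were at 16.7 and 1.81 FPKM without passing. GATA2, GATA3, TFAP2A, TFAP2C and DLX5 are in the list of BMP targets as well, and ISL1 is in the mesoderm list. The part of such cells in the mesoderm result was not tested.

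Of 11 endothelial and blood genes measured, 8 rose in MESO and 5 fell in NPC, and the summed level was 302 FPKM in MESO, 38.1 in hESC and 5.99 in NPC. FLT1, a VEGF receptor, rose from 18.7 to 90.2 FPKM in MESO and fell from 21.5 to 0.0413 in NPC, and TEK, the angiopoietin receptor, rose from 6.84 to 37.2 and fell from 8.43 to 3.97. PECAM1, CDH5 and TAL1 were low in MESO all the same, at 0.0701, 0.833 and 0.258 FPKM. RUNX1, another marker of endothelium and blood, rose there (the authors' deposited table gives q = 0.00552). For neural crest and border genes the sum was 437 FPKM in MESO against 71.8 in hESC, and 61.4 in NPC against 81.2. MSX2, MSX1, TFAP2A and SNAI2 made up more of this than the crest-defining SOX10, at 0.365 FPKM in MESO and 1.38 in NPC, and FOXD3, at 0.0312 and 0.0140. NGFR and B3GAT1, surface markers used to sort crest cells, were mirrored toward NPC: NGFR fell from 6.05 to 1.89 FPKM in MESO and rose from 6.22 to 13.1 in NPC. Of 13 endoderm genes, 4 rose and 2 fell in MESO (9.2% and 5.37% over all genes), and 2 rose and 6 fell in NPC (11.9% and 25.2%). SOX17 was at 2.08 FPKM in MESO and listed at 0 in NPC, and FOXA2 was at 0.190 and listed at 0. Of 10 neuronal genes, 1 rose and 1 fell in MESO, and 3 rose and 4 fell in NPC. Their summed level was 125 FPKM in MESO against 164 in hESC, and 113 in NPC against 179. MAP2, a microtubule protein of dendrites, rose in NPC from 0.732 to 42.1 FPKM, and DCX, of migrating neurons, from 0.895 to 2.82. The 4 that fell in NPC were TUBB3, ELAVL3, GAP43 and INSM1. Of 8 measured HOX genes all were higher in MESO by the centred difference and 1, HOXB7, passed (listed at 0 in hESC, 11.7 FPKM in MESO); HOXB6 was at 34.7 FPKM. All 8 were below 1 FPKM in hESC and none reached 1 FPKM in NPC, so each became a member through MESO alone.

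Against these contrasts stand the genes that moved alike. Of the 368 that rose in both, 235 differed by less than 1 between the derivatives, 77 were at least 1 higher in MESO and 56 in NPC. PRTG, protogenin, a receptor of the early neural tube and mesoderm, rose from 0.612 to 129.9 FPKM in MESO and from 0.665 to 96.4 in NPC, a difference of 0.17. GREB1L, needed for kidney and ear development, rose to 39.95 FPKM in MESO and 57.5 in NPC from under 1 in hESC. WLS, the carrier that exports WNT ligands, rose from 2.40 to 270.4 FPKM and from 2.75 to 68.9, and CDH11, a mesenchymal cadherin, from 1.97 to 77.2 and from 2.38 to 40.5. PRSS23, a serine protease, LIX1, of limb and forebrain, GPR56, an adhesion receptor, and ZNF503, a zinc finger repressor, complete the 8 largest, with differences between -1.92 and -0.46. Some shared genes rose by very different amounts. DLK1, a NOTCH-like imprinted gene product, rose from 2.14 to 11.8 FPKM in MESO and from 2.40 to 1485 in NPC, and IGFBP5, an IGF-binding protein, from 0.774 to 15.6 and from 0.870 to 180.5; both were chosen after their values were seen.

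Of the 475 genes that fell in both, 362 differed by less than 1, 55 were at least 1 higher in MESO and 58 in NPC. Most of the pluripotency genes were among them: of 24 measured, 18 fell in MESO, 17 in NPC and 14 in both, with a median difference of 0.37. ESRG, a noncoding RNA of pluripotent cells, fell from 247 to 2.72 FPKM in MESO and from 283 to 0.163 in NPC. PRDM14, a repressor that guards pluripotency, fell from 69.6 to 0.843 FPKM and from 78.7 to 0.575, nearly the same distance. ZSCAN10, a zinc finger factor, fell to 2.89 and 1.64 FPKM. POU5F1, the core factor OCT4, fell to different depths, from 217 to 19.9 FPKM in MESO and from 235 to 0.645 in NPC, a difference of 3.48. The authors' deposited table gives q = 0.0318 for its fall in NPC, a weak score beside so large a ratio. ZFP42, known as REX1, was at 87.1 FPKM in MESO against 91.5 in hESC, which did not pass, and fell in NPC from 106 to 10.7. USP44, a deubiquitinase, fell further in MESO (-5.33) than in NPC (-1.62), and SOX2 was the 1 pluripotency gene that rose in NPC. Other shared falls among the 8 largest were LECT1, a chondromodulin, MT1X, a metallothionein, and the small RNAs SNAR-C4 and SNAR-B1, which belong to a family of near-identical copies and were listed at 0 in both derivatives.

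MYC family genes and proliferation genes had small median differences, 0.29 each. MYC fell in NPC from 38.4 to 11.3 FPKM and was at 25.7 against 34.4 in MESO, and MYCN fell in NPC from 45.3 to 10.3, with 17.6 against 41.4 in MESO, which did not pass. Of 23 proliferation genes, 13 fell in NPC (the background of falls in NPC is 25.2%) and 1 in MESO. MKI67, a marker of cycling cells, was at 30.8 FPKM in MESO and 33.1 in NPC and passed in neither. Of 14 cell cycle inhibitors and related genes, 5 rose in MESO and 4 fell in NPC. Over all genes counted, 9.2% rose in MESO and 25.2% fell in NPC, so the falls were near that share. CDKN1A, the inhibitor p21, rose from 33.5 to 103 FPKM in MESO and fell from 34.6 to 5.92 in NPC, and GADD45B, a stress-response gene, from 8.00 to 36.2 and from 8.49 to 1.13. CDKN1B, the inhibitor p27, rose in NPC instead, from 24.1 to 47.4 FPKM.

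**Figure D5:**
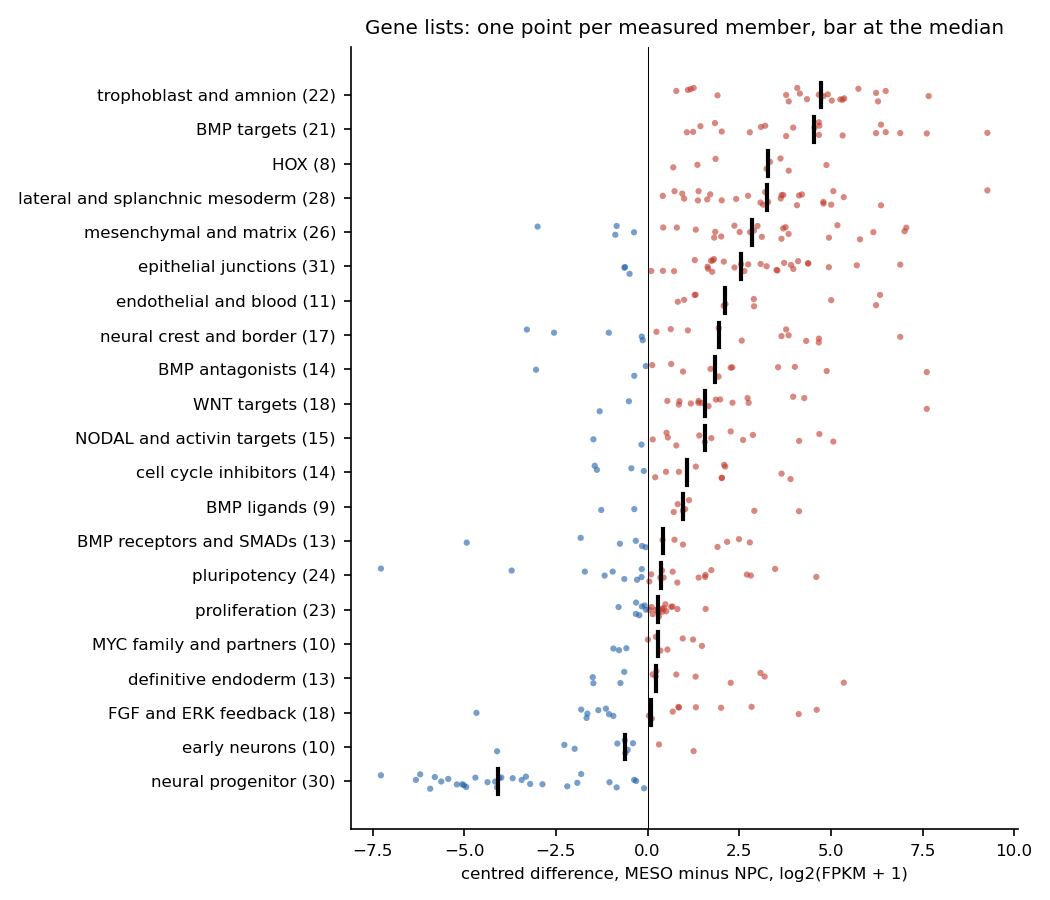
Centred difference (MESO minus NPC, log2(FPKM + 1)) of every measured member of 21 gene lists, with 1 point per gene and a black bar at the median. Trophoblast and amnion genes and BMP targets have the highest medians (4.73 and 4.55), neural progenitor genes the lowest (-4.08), and FGF feedback, MYC family and proliferation genes lie near 0.

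Members below 1 FPKM in hESC could only enter as raised in a derivative, and genes listed at or near 0 in hESC, such as LUM, HOXB6 and HAND2 (20.6 FPKM in MESO), often did not pass in the authors' test despite large differences. For 16 mirrored genes, among them HAPLN1, LFNG, TINAGL1, FLT1 and OVOL1, the log2 ratio of the deposited levels was over 3 times larger per unit of the authors' score than in the median gene of that table, in MESO or in NPC, so a large ratio stood beside a small score. The same held for genes that were not mirrored, among them POU5F1 (6.33 times the median), CER1 and PAX6 in NPC and VTCN1 in MESO.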

How the data were processed

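Human WA09 stem cells and their derivatives were sequenced as poly-A RNA, 2 libraries per cell type. The authors deposited, per the file headers, a table for each derivative that gives a single FPKM for hESC and for the derivative beside a test statistic (a signed score), a p-value and a q-value. Per the submitters' processing notes, the build was hg19 and the tools were Cufflinks 2.2.1, TopHat2 2.0.13, featureCounts and Subread 1.5.2; their roles, the scaling and the pooling of libraries were not given in the sources used here.

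A symbol with more than 1 row was taken from its row of highest mean FPKM; 430 members are merged loci with several symbols, and these stayed out of the lists. A pseudocount of 1 was added before log2, and each change was centred on its table's median. The authors did not test 285 members in MESO and 350 in NPC, and the lowest q-values were 0.000868 and 0.000323. With 1 value per cell type, limma could not be used and no test was run; called means the authors' q-value below 0.05. A symbol was set apart, and counted nowhere, if in any of the 4 tables its FPKM ratio went against its score, if a level was written with over 6 significant digits, or if its log2 ratio per unit of score came to less than 0.4 times the median of the table with a mean FPKM of 20 or more (18 symbols, NANOG and LDHA among them). Loci of 12 members did not overlap between the tables; 0 of these were mirrored.

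Members and lists were chosen with earlier results of these data known. Genes were named by a rule: the 4 markers, the 12 mirrored genes in each direction with the largest difference and at least 10 FPKM in a derivative, the 8 shared genes in each direction with the largest smaller change, and up to 6 called members per list with the largest difference. Other genes were named after their values were seen. Some genes that the rule selects are not reported here by name. Alternatives covered pseudocount, filter, centring, q threshold, minimum change and direct comparison of the derivative columns; some were added after seeing the data. The counting was tested on simulated data. Promoters are from RefSeq. Python 3.11.15, pandas 2.3.3, numpy 2.4.6 and matplotlib 3.10.9 were used.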

Additional observations from a re-analysis of the deposited data

How the results depend on the processing

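The counts of genes with a difference of at least 1 depended on the scale: 1415 were higher in MESO and 721 higher in NPC with a pseudocount of 5, and 3379 and 1209 without centring. With the authors' q below 0.01, 137 genes rose in MESO and fell in NPC, 23 fell in MESO and rose in NPC, 238 rose in both and 264 fell in both. A centred change of at least 1 in both tables left 111 genes that rose in MESO and fell in NPC. Leaving out genes below 2 FPKM in hESC in both tables left 209 that rose in both; this alternative, leaving out loci that do not overlap between the tables and leaving out genes with a large ratio per unit of score were added after seeing the data. The other 66 recomputed counts stayed within 1.5 times the main count, also with a pseudocount of 0.1, other FPKM minimums, quantile normalization, merged loci left out or symbols set apart kept. The list medians kept their sign in every alternative run except that of FGF and ERK feedback (-0.05 to 0.38), and no named gene of the 46 recomputed changed direction. No paired analysis was possible because the tables hold 1 value per cell type; for the same reason no replicate could be left out. Depth is unknown, and genes near 1 FPKM are the least certain.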

Other observations

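Families outside the lists above were chosen after seeing the data, so their counts are descriptions. Over all genes counted, 9.2% rose and 5.37% fell in MESO, and 11.9% rose and 25.2% fell in NPC. Annexins, proteins that bind membranes in the presence of calcium, fell together in NPC: of 9 measured, 8 fell there and 3 rose in MESO, with a median difference of 2.46. ANXA2, the partner of S100A10, rose from 54.8 to 251 FPKM in MESO and fell from 62.8 to 3.34 in NPC. ANXA3 went from 8.01 to 98.8 and from 9.98 to 1.20. ANXA5, used to detect dying cells, was at 232 FPKM against 113 in MESO, which did not pass, and fell in NPC from 133 to 73.3. Of 10 measured S100 genes, 5 rose in MESO and 3 fell in NPC, the falls being near the share over all genes. S100A6 was mirrored beside S100A10 and S100A11, from 11.8 to 57.5 and from 12.3 to 0.289 FPKM. S100P, at 23.4 FPKM in MESO against 0.0505 in hESC, did not pass. Actin-binding genes showed 6 mirrored toward MESO of 23 measured, with TAGLN2, a calponin relative, from 85.4 to 392.2 and from 94.8 to 5.31 FPKM. TAGLN3, its neural relative, rose in NPC from 3.62 to 32.7 FPKM.

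NOTCH pathway genes rose mainly in NPC, where 11 of 18 measured rose and 5 fell, against 3 and 5 in MESO, with a median difference of -0.98. DLL1, a NOTCH ligand, rose in NPC from 5.29 to 99.6 FPKM and was at 2.63 in MESO. HEY1 and HEY2, related targets, were higher in MESO by 3.21 and 3.44. Of 9 Frizzled receptors, 5 rose and 1 fell in NPC, and 4 rose and 3 fell in MESO. FZD5 was mirrored toward NPC, from 29.6 to 7.03 FPKM in MESO and from 34.1 to 71.5 in NPC. Metallothioneins fell on both sides, 5 of 7 measured in each table and 3 in both, with MT2A from 59.7 to 5.86 and from 69.2 to 4.89 FPKM. Among genes that handle retinoic acid, CRABP1 was mirrored toward NPC, and CRABP2, its relative, passed in neither table, at 231 FPKM in MESO and 107 in NPC. ALDH1A2, which makes retinoic acid in mesoderm, rose in MESO from 0.188 to 8.36 FPKM. Collagen COL2A1, of cartilage and notochord, rose in both but reached 116 FPKM in NPC against 10.1 in MESO, unlike COL1A1, COL6A1 and COL6A2, which were mirrored toward MESO.

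Mirrored genes lay beside each other in 13 pairs with gaps under 150000 bases, of which 11 were mirrored the same way. As 238 of the 303 mirrored genes rose in MESO and fell in NPC, pairs of the same class would be common at any position. No share over all neighbouring genes was taken, so these counts are descriptions. The 11 pairs included COL6A1 and COL6A2 on chromosome 21, KRT18 and KRT8 as well as KRT80 and KRT7 on chromosome 12, ZIC5 and ZIC2 on chromosome 13 and PNCK and SLC6A8 on chromosome X. The pairs SYT9 with PPFIBP2 and DPYSL5 with EMILIN1 were mirrored in opposite ways.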
